A study of Mus musculus with 8 samples.

Results

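YAP (gene Yap1) and TAZ (gene Wwtr1), together with the genes that act beside and below them, were followed in primary mandibular fibrochondrocytes, the cells of the mandibular condylar cartilage, from NG2/CSPG4 knockout (NG2ko) and wild type (WT) mice. The 10 genes were Yap1, Wwtr1, Tead1, Tead2, Tead3, Tead4, Ajuba, Ccn1, Ccn2 and Ankrd1, taken by gene name from a table of 55401 genes, and each name matched 1 row. NG2ko cells carried a homozygous reporter-tagged deletion of Cspg4 (LacZ cassette, Cspg4tm1a(KOMP)Wtsi line crossed with a Cre-expressing line, then backcrossed to C57BL/6J), in which the gene is lost in the whole animal. WT cells came from C57BL/6J mice bought from a supplier, so the groups were not littermates. The study names the line received before the backcross TM1b-6N, and strain background left from it cannot be told apart from genotype. Both groups were isolated from pups, aged 10 to 14 days by the labels and 14 days by the sequencing methods, grown without loading or drug and taken at passage 4, with 4 libraries per genotype. The study describes the replicates as biological. The labels name no animal or litter for a library, so p-values measure the spread between these libraries.

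YAP and TAZ are transcriptional coactivators that sense cell shape, matrix stiffness and cell contact. In the kinase cascade of the Hippo pathway, MST acts on LATS, and LATS phosphorylates YAP and TAZ and holds them in the cytoplasm. When YAP and TAZ escape this control, they enter the nucleus and bind the TEAD transcription factors, which carry them to DNA. In cartilage and fibroblast cultures they are studied as mediators of mechanical signals, and Ccn1, Ccn2 and Ankrd1 are their most widely used target genes. RNA levels do not show where the YAP and TAZ proteins are in the cell or whether they are phosphorylated.

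TEAD factors recognize the MCAT element, CATTCC, or GGAATG on the opposite strand. RefSeq promoter windows (mouse GRCm38.p6, 250 bases before the transcription start and 50 after) were present for 7 of the 10 genes, and Tead1, Tead4 and Ccn2 had no entry. The element was found in at least 1 window of 6 of these 7 genes, all but Tead2, and in 8 of their 10 windows, whereas 4817 of all 32851 windows (14.7%) and 4481 of 27025 genes (16.6%) held it. Windows of a gene can overlap, and those of Wwtr1 hold the same element, at -136 and -170 from their own starts, so it is counted again among the windows. In a panel of further YAP and TAZ targets, 2 of the 15 genes with a window held it (Axl and Crim1). A match describes the letters only and is not evidence of binding. The windows of Ajuba (chr14:54577612-54577911, minus strand), Ankrd1 (chr19:36119795-36120094, minus strand) and Ccn1 (chr3:145649936-145650235, minus strand) are shown because these genes were the regulator that was higher in NG2ko cells, the one with the greatest relative loss among Ccn1, Ccn2 and Ankrd1 and a target that did not pass the test. Each is written 5′ to 3′ on the strand of the gene, with each MCAT element in capitals.
Ajuba: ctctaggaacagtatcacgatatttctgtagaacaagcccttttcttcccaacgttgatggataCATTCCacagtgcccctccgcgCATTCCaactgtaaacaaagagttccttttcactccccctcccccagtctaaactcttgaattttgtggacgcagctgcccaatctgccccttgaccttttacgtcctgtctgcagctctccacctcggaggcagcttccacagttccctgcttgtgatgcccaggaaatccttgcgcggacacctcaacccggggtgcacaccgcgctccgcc
Ankrd1: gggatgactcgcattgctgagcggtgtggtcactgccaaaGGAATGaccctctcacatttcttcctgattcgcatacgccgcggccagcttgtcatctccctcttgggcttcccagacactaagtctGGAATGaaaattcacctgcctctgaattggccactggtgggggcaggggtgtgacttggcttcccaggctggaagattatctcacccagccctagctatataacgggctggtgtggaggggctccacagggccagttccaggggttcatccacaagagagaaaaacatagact
Ccn1: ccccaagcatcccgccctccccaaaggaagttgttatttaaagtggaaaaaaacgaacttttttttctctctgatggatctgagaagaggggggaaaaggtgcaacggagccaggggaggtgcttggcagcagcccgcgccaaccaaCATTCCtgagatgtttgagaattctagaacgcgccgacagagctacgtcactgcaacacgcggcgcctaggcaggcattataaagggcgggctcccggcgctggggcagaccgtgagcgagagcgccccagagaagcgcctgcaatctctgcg
Counted from the RefSeq transcription start, the elements begin at -186 and -164 in Ajuba, at -210 and -123 in Ankrd1 and at -103 in Ccn1. These starts differ from the gene positions given below. The whole Ajuba window lies upstream of the listed gene, whose span ends at 54577558. The Ajuba elements read CATTCC on the gene's own strand, both Ankrd1 elements read GGAATG, and the Ccn1 element reads CATTCC.

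RNA was measured by poly(A) sequencing, and total counts were 67197864 to 80300263 in NG2ko and 60317187 to 83668935 in WT libraries. Of 17190 genes tested by edgeR's quasi-likelihood test, 937 were higher and 1160 were lower in NG2ko at an adjusted p under 0.05. By limma on log2 FPKM (fragments per kilobase of transcript, scaled to 1000000 mapped fragments), the split was 1183 higher and 897 lower among 16856 genes tested. That fit used a pseudocount of 0.1 and another filter (at least 0.1 FPKM in 4 libraries). Cspg4, the targeted gene, was lower in NG2ko (log2 fold change -4.56, adjusted p = 1.92e-05). Of 14 genes that mark myeloid cells, 12 were higher in NG2ko, with summed levels of 347 to 403 counts per 1000000 counts (CPM) in NG2ko and 100.1 to 120.4 CPM in WT libraries, and 4 of 4 Y-linked genes were higher, with sums of 188 to 202 CPM in NG2ko and 0 to 0.286 CPM in WT. The part of the myeloid markers in the results below was not tested. Genotype cannot be told apart from Y-linked expression, and so from the sex of the source animals, in any comparison of NG2ko with WT here. Of 12 genes of cartilage and fibrous matrix, Matn1 was at 0 in every library and 11 could be tested. Of these, 5 were higher in NG2ko (Sox9, Col2a1, Hapln1, Comp and Tnmd), or 45.5%, beside 5.45% of all genes tested. The tests called 0 lower, and 6 did not pass (Acan, Col1a1, Col3a1, Col6a1, Prg4 and Scx).

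Of the 10 genes of the YAP and TAZ module, 1 was higher and 3 were lower in NG2ko cells, and 6 did not pass the test. Ajuba rose, and Ankrd1, Ccn2 and Tead4 fell. This is 40.0% of the genes, beside 12.2% of all genes tested (5.45% higher and 6.75% lower). Because the 10 genes were chosen with earlier results of these data known, the contrast is not a test of the module. The median log2 fold change of the 10 genes was -0.13, beside 0.02 over all genes tested. All 10 genes passed the filter on low counts, with counts of 520 to 50210 per library. Under the cut-offs used in the study, a log2 fold change beyond 1 with p under 0.05 before adjustment, Tead1 alone of the 10 genes passed, beside 3.21% of all genes tested.

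**Figure D1:**
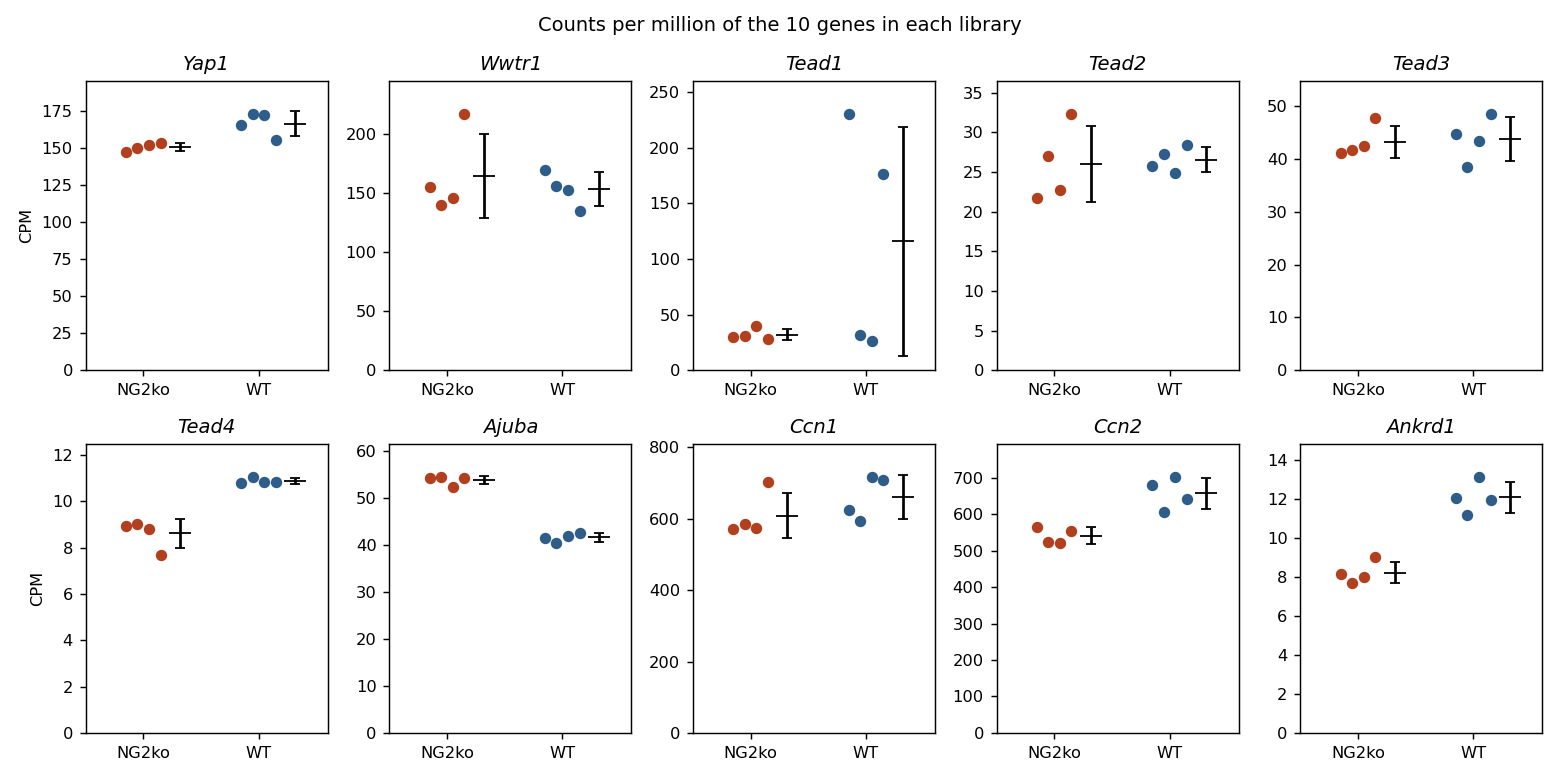
CPM (vertical axis, from 0) of each of the 10 genes in the 4 NG2ko (left, red) and 4 WT (right, blue) libraries, with the mean and SD of each genotype as bars. The groups are apart in Yap1, Tead4, Ajuba, Ccn2 and Ankrd1, and 2 of the WT libraries stand far above the rest in Tead1.

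The groups did not overlap on CPM in 5 of the 10 genes (Yap1, Tead4, Ajuba, Ccn2 and Ankrd1), beside 19.9% of all genes tested. On FPKM the same held for 4 of them, since Yap1 then overlapped.

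Yap1 (ENSMUSG00000053110, GRCm38 chromosome 9, 7931999 to 8004596, minus strand), which encodes YAP, had 148, 150.3, 152 and 154 CPM in NG2ko and 166, 173, 173 and 155 CPM in WT libraries. Every NG2ko library was below every WT library, but WT replicate 4 lay close to the highest NG2ko library. The means were 151 ± 2.58 CPM in NG2ko and 167 ± 8.32 CPM in WT (SD, n = 4 each). The log2 fold change of -0.14 (SE 0.05, 95% interval -0.25 to -0.04) did not pass the test after adjustment (edgeR, adjusted p = 0.0873). Of 17 alternative analyses, it passed only in the one without WT replicate 4 (adjusted p = 0.0282).

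Wwtr1 (ENSMUSG00000027803, chromosome 3, 57455649 to 57575910, minus strand), which encodes TAZ, the paralog of YAP, had 155, 140.2, 146 and 217 CPM in NG2ko and 169, 156, 153 and 135 CPM in WT libraries. The groups overlapped, and NG2ko replicate 4 stood above all other 7 libraries. The log2 fold change was 0.10 (SE 0.14, 95% interval -0.22 to 0.42, adjusted p = 0.723) and was -0.06 without that library. Per length, Wwtr1 RNA exceeded Yap1 RNA in every library, with a ratio of FPKM of 2.11 ± 0.43 in NG2ko and 1.78 ± 0.14 in WT. The summed FPKM of the 2 coactivator genes was 46.6 ± 7.37 in NG2ko and 44.7 ± 3.40 in WT (SD, n = 4 each), with overlapping ranges.

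The 4 TEAD genes encode the DNA-binding partners of YAP and TAZ, and they differed among themselves. Tead4 was the TEAD gene that passed the test. Tead4 (ENSMUSG00000030353, chromosome 6, 128224288 to 128300823, minus strand) had 8.95, 9.02, 8.81 and 7.68 CPM in NG2ko and 10.8, 11.1, 10.8 and 10.8 CPM in WT libraries. All NG2ko libraries were below all WT libraries, and the WT libraries lay close together. Tead4 fell by 20.8% (log2 fold change -0.34, SE 0.08, 95% interval -0.52 to -0.15, adjusted p = 0.0268). The call was lost in 8 of 17 alternative analyses, with adjusted p up to 0.113, and the log2 fold change stayed between -0.36 and -0.21.

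Tead2 (ENSMUSG00000030796, chromosome 7, 45215753 to 45233644, plus strand), a TEAD gene known for its expression in the early mouse embryo, had 21.8, 27.1, 22.8 and 32.3 CPM in NG2ko and 25.7, 27.3, 24.8 and 28.4 CPM in WT libraries. Its log2 fold change was -0.03 (95% interval -0.30 to 0.23, adjusted p = 0.907). Tead3 (ENSMUSG00000002249, chromosome 17, 28331671 to 28350663, minus strand), known for its expression in placenta in humans, had 41.1, 41.6, 42.5 and 47.7 CPM in NG2ko and 44.8, 38.4, 43.4 and 48.5 CPM in WT libraries. The groups overlapped in both genes, NG2ko replicate 4 was the highest NG2ko library in both, and the sign of both differences changed under some alternatives. The Tead3 log2 fold change was -0.02 (95% interval -0.20 to 0.16, adjusted p = 0.926).

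Tead1 (ENSMUSG00000055320, chromosome 7, 112679318 to 112906807, plus strand), a broadly expressed TEAD gene needed for heart development in the mouse, had 29.7, 30.9, 39.8 and 27.9 CPM in NG2ko and 229.9, 31.7, 26.1 and 176 CPM in WT libraries. WT replicates 1 and 4 were far above the other 6 libraries, and WT replicates 2 and 3 lay at the level of the NG2ko libraries. These levels rest on 2391, 2082, 3231 and 1957 counts in NG2ko and 13651, 2614, 1827 and 11320 counts in WT libraries, so counting error is small beside the gap. The log2 fold change of -1.85 (SE 0.77, 95% interval -3.69 to -0.01) had an unadjusted p of 0.0487 and an adjusted p of 0.193 by edgeR. Without WT replicates 1 and 4 it was 0.14 (adjusted p = 0.711), so the sign and the size of the Tead1 difference rested on these 2 libraries.

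The step in Tead1 was looked for in other genes. Among 13567 genes that averaged 1 CPM or more, 3 entries had both WT replicates 1 and 4 at least 2-fold above every other library after 0.5 CPM was added to each value, and 1 had both at least 2-fold below. Tead1 was the largest of the 3, with the lower of the 2 high libraries at 4.43 times the highest of the other 6. The remaining entries, named after their values were seen, were H3c14, a histone gene with near-identical copies, which had 16.6 and 17.5 CPM in WT replicates 1 and 4 against 0.0297 to 6.01 CPM elsewhere, and 2 overlapping entries named 4933434E20Rik on the same strand of chromosome 3. In that pair, 1 entry had 38.1 and 39.5 CPM in these WT libraries against 6.70 to 10.7 CPM elsewhere, and the other had 2.11 and 1.85 CPM against 22.9 to 26.2 CPM. Their sum was 40.2 and 41.3 CPM in WT replicates 1 and 4 and 31.0 to 33.7 CPM in the other 6 libraries. For Tead1, GENCODE lists 15 transcripts, 11 of them coding, and the 2 annotated genes that overlap it reached at most 0.422 CPM in any library. The cause of the step was not tested.

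**Figure D2:**
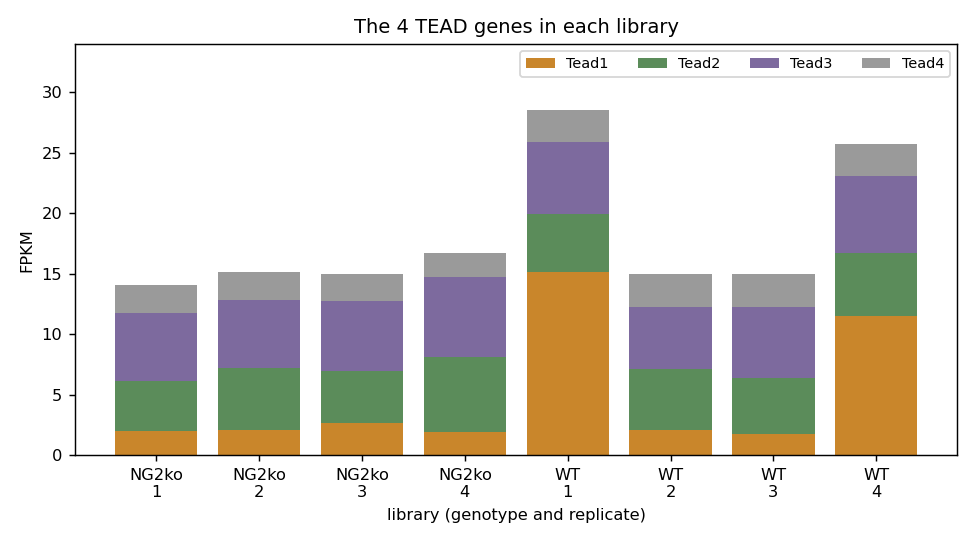
FPKM of the 4 TEAD genes (vertical axis, from 0), stacked for each of the 4 NG2ko (left) and 4 WT (right) libraries. Tead1 takes 53.0% and 44.6% of the stack in WT replicates 1 and 4 and 11.4% to 17.8% in the other 6 libraries, while Tead2, Tead3 and Tead4 together stay between 12.1 and 14.8 FPKM.

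Per length, the TEAD genes summed to 14.1 to 16.7 FPKM in NG2ko and 15 to 28.5 FPKM in WT libraries. Tead3 was the most abundant TEAD RNA in 6 libraries and Tead1 in WT replicates 1 and 4. The share of Tead1 was 11.4% to 17.8% in NG2ko libraries, and it was 53.0%, 13.9%, 11.6% and 44.6% in WT libraries. The sum without Tead1 was 13.1 ± 1.23 FPKM in NG2ko and 13.4 ± 0.59 FPKM in WT (SD, n = 4 each), so the TEAD sum differed between libraries mainly through Tead1.

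Ajuba (ENSMUSG00000022178, chromosome 14, 54567472 to 54577558, minus strand) encodes a LIM-domain scaffold protein of cell junctions that binds the LATS kinases and restrains their action on YAP. It had 54.1, 54.4, 52.3 and 54.1 CPM in NG2ko and 41.3, 40.4, 41.9 and 42.5 CPM in WT libraries. The lowest NG2ko library lay well above the highest WT library, and the spread within each genotype was small, at 53.7 ± 0.94 CPM in NG2ko and 41.5 ± 0.88 CPM in WT (SD, n = 4 each). Ajuba was 29.3% higher in NG2ko (log2 fold change 0.37, SE 0.05, 95% interval 0.27 to 0.48, edgeR adjusted p = 0.000702). It passed the test in 17 of 17 alternative analyses, with adjusted p up to 0.0103. The related LIM proteins Limd1 and Wtip, named after their values were seen, did not pass the test, with log2 fold changes of -0.17 (adjusted p = 0.649) and 0.18 (adjusted p = 0.215).

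Of the 3 targets Ccn1, Ccn2 and Ankrd1, the last had the greatest relative difference. Ankrd1 (ENSMUSG00000024803, chromosome 19, 36111961 to 36119910, minus strand) encodes a nuclear ankyrin repeat protein that is induced by mechanical load, best known from heart muscle. It had 8.18, 7.71, 8.02 and 9.02 CPM in NG2ko and 12, 11.2, 13.1 and 12 CPM in WT libraries. The groups did not overlap. Ankrd1 fell by 31.9% in NG2ko (log2 fold change -0.55, SE 0.09, 95% interval -0.75 to -0.36, adjusted p = 0.00258), to 8.23 ± 0.56 CPM against 12.1 ± 0.80 CPM in WT (SD, n = 4 each), and passed the test in 17 of 17 alternative analyses. In these bulk samples, fewer expressing cells and less RNA per cell cannot be told apart.

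Ankrd1 is also a muscle gene, so muscle markers were set beside it. The summed level of 10 skeletal muscle genes was 13.3 to 18.0 CPM in NG2ko and 10.5 to 22.1 CPM in WT libraries (two-sided exact permutation p = 0.686). Myod1, Myf5 and Myh3 were at 0 in all 8 libraries, and Myog and Myh8 were under 0.1 FPKM in each. The other 5 were higher, with Actc1 up to 7.02, Acta1 up to 3.18, Ckm up to 0.701, Des up to 0.558 and Tnnt3 up to 0.406 FPKM. None of these passed the test. The related gene Ankrd23 was at 2.73 ± 0.19 CPM in NG2ko and 2.44 ± 0.77 CPM in WT. It did not pass the test (log2 fold change 0.16, adjusted p = 0.715), and Ankrd2 was too low to test.

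Ccn2 (ENSMUSG00000019997, chromosome 10, 24595442 to 24598683, plus strand) encodes connective tissue growth factor, a secreted matricellular protein that promotes matrix production in chondrocytes and fibroblasts. It had 567, 523, 523 and 555 CPM in NG2ko and 679.7, 606, 703 and 642 CPM in WT libraries. Each NG2ko library was below each WT library. Ccn2 fell by 17.6% (log2 fold change -0.28, SE 0.06, 95% interval -0.41 to -0.15, adjusted p = 0.00958), to 542 ± 22.4 CPM in NG2ko against 658 ± 42.4 CPM in WT (SD, n = 4 each). The call was lost without WT replicates 1 and 4 (log2 fold change -0.28, SE 0.07, adjusted p = 0.0692) and held in the other 16 alternatives.

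Ccn1 (ENSMUSG00000028195, chromosome 3, 145646976 to 145649981, minus strand) encodes CYR61, the closest relative of Ccn2 among these targets and a ligand of integrins. It had 571, 586, 574 and 703 CPM in NG2ko and 626, 595, 717 and 708 CPM in WT libraries. NG2ko replicates 1 to 3 were below every WT library, while NG2ko replicate 4 reached the level of the highest WT libraries. The log2 fold change was -0.12 (SE 0.08, 95% interval -0.31 to 0.07, adjusted p = 0.429), so a loss of the relative size seen in Ankrd1 lies outside the interval and one of the size seen in Ccn2 lies within it. The ratio of Ccn1 to Ccn2 FPKM was 1.59 ± 0.15 in NG2ko and 1.43 ± 0.11 in WT (SD, n = 4 each), with overlapping ranges. Ankrd1 FPKM per 1000 FPKM of Ccn1 was 8.96 to 10.0 in NG2ko and 11.8 to 13.4 in WT libraries, which did not overlap.

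**Figure D3:**
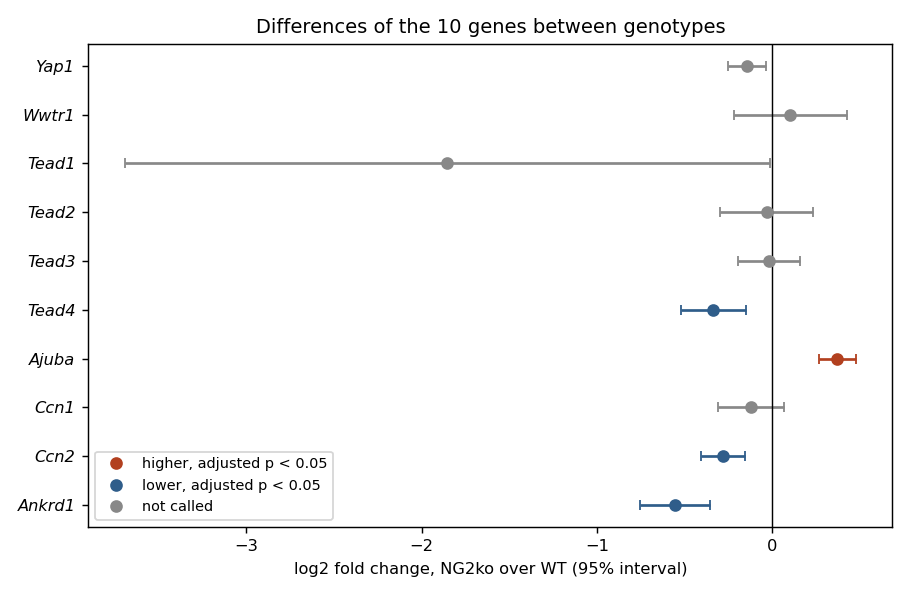
Log2 fold change of NG2ko over WT (edgeR) for each of the 10 genes, with its 95% interval as a bar and a mark for genes at an adjusted p under 0.05. Ajuba lies above 0, Ankrd1, Ccn2 and Tead4 lie below 0, and the interval of Tead1 is by far the widest, from -3.69 to -0.01.

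The other CCN genes encode secreted matrix proteins of the same family as Ccn1 and Ccn2, and 0 of the 3 that could be tested passed by edgeR or by DESeq2, while 1 had an unadjusted p under 0.05. Ccn5, which lacks the C-terminal domain of its relatives, was at 366 ± 20.1 CPM in NG2ko and 419 ± 34.2 CPM in WT (log2 fold change -0.19, adjusted p = 0.0909). Among 17 alternative analyses, Ccn5 passed only without WT replicate 2 (adjusted p = 0.0172). Ccn3 and Ccn4 had log2 fold changes of -0.07 (adjusted p = 0.536) and 0.07 (adjusted p = 0.561), and Ccn6 had no counts in any library.

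Within the NG2ko group, replicate 4 was the highest library for 6 of the 10 genes (Yap1, Wwtr1, Tead2, Tead3, Ccn1 and Ankrd1) and the lowest for Tead1 and Tead4. Without this library Ajuba, Ccn2 and Ankrd1 still passed the test, and Tead4 did not (adjusted p = 0.0708).

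**Figure D4:**
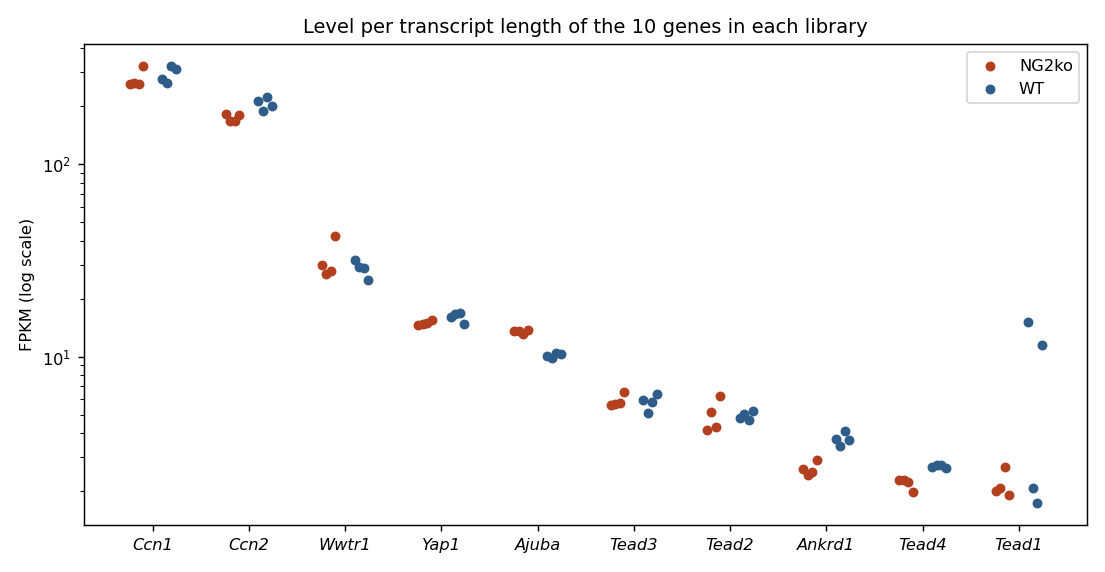
FPKM (vertical axis, log scale) of the 10 genes in the 4 NG2ko (left of each pair, red) and 4 WT (right, blue) libraries, 1 point per library. The targets Ccn1 and Ccn2 lie highest, at 167 to 323 FPKM, Wwtr1 and Yap1 follow, and the target Ankrd1 lies among the TEAD genes at 2.43 to 4.11 FPKM.

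Levels were compared between genes on FPKM, which is scaled by transcript length. In NG2ko cells the mean levels were 277 FPKM for Ccn1, 174 for Ccn2, 31.6 for Wwtr1, 15 for Yap1, 13.5 for Ajuba, 5.90 for Tead3, 4.97 for Tead2, 2.61 for Ankrd1, 2.19 for Tead4 and 2.16 for Tead1. Neighbours in this order overlapped between libraries for Tead3 with Tead2 and for Tead4 with Tead1. In WT cells the mean levels were 293 FPKM for Ccn1, 205 for Ccn2, 28.6 for Wwtr1, 16.1 for Yap1, 10.2 for Ajuba, 7.61 for Tead1, 5.81 for Tead3, 4.94 for Tead2, 3.74 for Ankrd1 and 2.69 for Tead4. There Tead1 overlapped both of its neighbours, Ajuba and Tead3, and Tead3 overlapped Tead2. The order was the same in both genotypes apart from Tead1, which was last in NG2ko and sixth in WT through WT replicates 1 and 4.

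The other genes of the pathway were read from 4 lists of 60 genes, of which 56 could be tested, 4 were higher and 9 were lower in NG2ko (23.2%, beside 12.2% of all genes tested), with a median log2 fold change of -0.09. Among 17 kinases and activators of the Hippo core, such as the MST, LATS and MAP4K enzymes, 0 were higher and 2 were lower by edgeR (0 higher and 4 lower at an unadjusted p under 0.05, and 0 higher and 3 lower by DESeq2), or 11.8% called, near the share of all genes. Mink1, a MAP4K-family kinase that can activate LATS, was at 63.8 ± 2.39 CPM in NG2ko and 77.0 ± 3.56 CPM in WT (log2 fold change -0.27, adjusted p = 0.00892). The call was lost without WT replicates 1 and 4 (adjusted p = 0.0852). Over 17 alternatives, the Mink1 log2 fold change stayed between -0.31 and -0.21. Taok3, a kinase of the family that activates MST, fell by 23.3% (adjusted p = 0.0433), a call lost in 12 of 17 alternatives.

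Mob1a, the cofactor that activates LATS kinases, was chosen after its values were seen. It had 225, 55.6, 88.9 and 83.2 CPM in NG2ko and 212, 211, 219 and 199.5 CPM in WT libraries. NG2ko replicate 1 was at the level of the WT libraries and the other 3 NG2ko libraries were far below them. Its log2 fold change of -0.89 did not pass the test (edgeR, adjusted p = 0.258). Among 17 alternative analyses, Mob1a passed only without NG2ko replicate 1 (log2 fold change -1.47, adjusted p = 0.00103).

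A further list held 15 genes whose proteins bind YAP, TAZ, TEAD or Hippo kinases, directly or within a complex. Of these, 13 could be tested, 1 was higher and 1 was lower (15.4%, near the 12.2% of all genes tested). Vgll4 encodes a repressor that competes with YAP and TAZ for the TEAD proteins. It had 46.2, 55.5, 50.9 and 47.8 CPM in NG2ko and 35.8, 35.4, 36 and 34 CPM in WT libraries (log2 fold change 0.50, adjusted p = 0.000799), with no overlap, and the call held in 17 of 17 alternatives. Dlg5, a polarity scaffold that binds MST and MARK kinases, was at 114 ± 11.4 CPM in NG2ko and 140.4 ± 9.04 CPM in WT (log2 fold change -0.31, adjusted p = 0.0264), a call lost in 9 alternatives. Among 8 upstream protocadherin and polarity genes, 7 could be tested and 1 passed (14.3%, also near the share of all genes): Dchs1, the ligand of the protocadherin Fat4, was at 12.3 ± 1.0 CPM in NG2ko and 8.42 ± 1.51 CPM in WT (log2 fold change 0.55, adjusted p = 0.0218), a call lost in 5 alternatives.

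In a panel of 20 further genes described as YAP and TAZ targets in other cells, 19 could be tested, 2 were higher and 6 were lower in NG2ko (42.1%, beside 12.2% of all genes tested, 5.45% higher and 6.75% lower), with a median log2 fold change of -0.13. At an unadjusted p under 0.05, 5 were higher and 8 were lower, and by DESeq2 4 were higher and 7 were lower. Like the other lists, the panel was chosen with earlier results of these data known. Cavin2, which encodes a coat protein of caveolae, had 41.6, 33.1, 37.5 and 34.8 CPM in NG2ko and 76.6, 73.1, 80.4 and 66.5 CPM in WT libraries, and fell by 50.4% (log2 fold change -1.01, adjusted p = 5.78e-05). Asap1, a regulator of ARF GTPases at focal adhesions, fell by 27.3% (adjusted p = 0.000395), and Axl, a receptor tyrosine kinase, fell by 23.6% (adjusted p = 0.00078). Foxf2, a forkhead factor of mesenchyme, was low in both groups, at 5.75 ± 0.32 CPM in NG2ko and 9.33 ± 0.72 CPM in WT, and fell by 38.4% (adjusted p = 0.00104). Dock5, an exchange factor for RAC, and F3, which encodes tissue factor, fell by 23.7% (adjusted p = 0.0106) and 15.9% (adjusted p = 0.0132). The panel was not of 1 direction. Nt5e, which encodes the ectonucleotidase CD73, was 46.7% higher in NG2ko (20.2 ± 1.31 CPM against 13.8 ± 1.41 CPM in WT, adjusted p = 0.00317), and Arhgap29 was 20.3% higher (adjusted p = 0.0138). The call on Arhgap29 was lost without WT replicates 1 and 4, and the calls on the other 7 held in 17 of 17 alternatives. Over the 17 alternatives, the Arhgap29 log2 fold change stayed between 0.20 and 0.31.

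**Figure D5:**
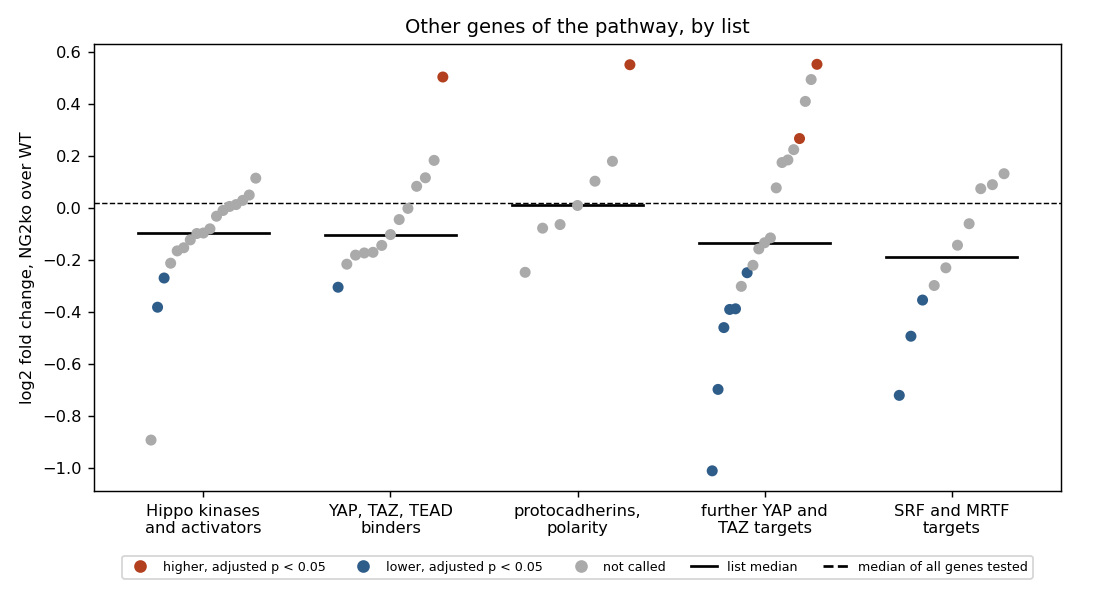
Log2 fold change of NG2ko over WT for each tested gene of 5 lists around YAP and TAZ, 1 point per gene, coloured by call, with the median of each list as a line and that of all genes tested as a dashed line. Called genes lie on both sides of 0, and the median of the 19 further YAP and TAZ targets is -0.13, beside 0.02 over all genes.

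SRF with its MRTF cofactors is a second system that reads the state of the actin cytoskeleton, and it shares targets with YAP and TAZ. Of 10 such genes, 0 were higher and 3 were lower by edgeR (0 higher and 5 lower at an unadjusted p under 0.05, and 0 higher and 4 lower by DESeq2), or 30.0% called beside 12.2% of all genes tested, with a median log2 fold change of -0.19. Cnn1, which encodes the actin-binding calponin, fell by 39.4% (26.3 ± 2.42 CPM in NG2ko, 43.3 ± 4.24 CPM in WT, adjusted p = 0.000563). Filip1l and the smooth muscle actin gene Actg2 fell by 29.0% (adjusted p = 0.000489) and 21.8% (adjusted p = 0.0147). The call on Actg2 was lost without WT replicates 1 and 4 (adjusted p = 0.0800). Over 17 alternatives, the Actg2 log2 fold change stayed between -0.41 and -0.30. The summed level of the 10 genes overlapped, at 6767 to 7481 CPM in NG2ko and 7046 to 7607 CPM in WT libraries.

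The deposited annotation places 154 genes in the KEGG Hippo pathway, among them 8 of the 10 genes described here (not Ccn1 or Ankrd1). Of these 154, 133 could be tested, 13 were higher and 12 were lower in NG2ko (18.8%, beside 12.2% of all genes), and the median log2 fold change was -0.05. Markers of endothelial cells (Pecam1, Cdh5, Kdr and Emcn) and of epithelial cells (Epcam, Krt5 and Krt18) were under 0.1 FPKM in every library, and Krt14 and Krt8 were at 0. The other markers on these lists were higher, with Egfl7 up to 0.674 FPKM and Tek up to 0.115 FPKM among the endothelial genes and Cdh1 up to 0.584 FPKM among the epithelial genes. The summed level of the 6 endothelial genes was 2.36 to 3.72 CPM in NG2ko and 2.86 to 3.53 CPM in WT libraries, and that of the 6 epithelial genes was 1.85 to 2.90 CPM in NG2ko and 1.37 to 2.23 CPM in WT libraries.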

How the data were processed

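RNA of 4 NG2ko and 4 WT libraries was sequenced by the authors as paired-end, stranded poly(A) libraries. Per the study's methods, the authors cleaned reads, checked them with FastQC, aligned them by HISAT2 to mouse GRCm38 (Ensembl release 101) and used StringTie and edgeR to assemble and quantify transcripts. Counts in the deposited table are whole numbers, not normalized, whose counter and strand setting are not given in the sources used here. The deposited FPKM are from StringTie, and each count of 0 carries an FPKM of 0.0001. Per the file headers it also holds gene positions and GO and KEGG terms.

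Counts were analysed with edgeR 4.0.16 in R 4.3.3, with TMM scaling, filterByExpr (minimum count 10) and a robust quasi-likelihood fit on genotype, and p-values were adjusted by Benjamini-Hochberg over 17190 of 55401 genes. CPM are counts per 1000000 of the TMM-scaled size of the filtered library. The SE was derived from the F statistic of each gene. Marker sums were compared by two-sided exact permutation tests, which cannot go below p = 0.0286 with 4 libraries against 4. Alternatives were a replicate block, DESeq2 1.42.0, upper-quartile scaling, no filter, a filter of at least 1 CPM in 4 libraries, limma 3.58.1 on log2 FPKM with pseudocounts of 0.1 and 1, and leaving out each library. An ordinary prior and the removal of WT replicates 1 and 4 were added after seeing the data. The fit was tested on simulated data, where it recovered 41.7% of 1.5-fold, 66.7% of 2-fold, 87.8% of 4-fold and 89.4% of 8-fold changes. Of 140 calls there, 3 were false. A gene that did not pass the test is therefore not shown to be unchanged. No libraries were duplicates.

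The 10 genes and the lists around them were chosen with earlier results of these data known. The text names every one of the 10 genes, the genes of each pathway list that passed the test (up to 8 per list), the CCN and Ankrd relatives and Cspg4, gives cell type markers and Y-linked genes as counts and summed levels, and says where a gene was chosen after its values were seen. The KEGG Hippo terms of the deposited annotation were also taken up after the data were seen. Ccn2 is overlapped on the opposite strand by Gm15270, which reached 3.00 CPM.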

Additional observations from a re-analysis of the deposited data

Results flagged for a closer look

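Of the 20 groups formed by the 10 genes in each genotype, 3 had 1 library apart from the other 3 by Dixon's criterion for groups of 4, all among NG2ko libraries. Chance gives about 1 such group in 20. NG2ko replicate 4 was low for Tead4, at 7.68 CPM (gap over range 0.843), and high for Ccn1, at 703 CPM (0.888). NG2ko replicate 3 was low for Ajuba, at 52.3 CPM (0.870), in a group whose whole spread was small. The 2 high WT libraries of Tead1 are not found by this criterion, which looks for a single library.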

How the results depend on the processing

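Of the 10 genes, Ajuba and Ankrd1 passed the test in 17 of 17 alternatives, Ccn2 in 16 and Tead4 in 9. Leaving out 1 library at a time left 3 to 5 of the 10 genes called, 613 to 900 genes higher and 838 to 1089 lower in the whole table, and 3 to 5 higher and 7 to 11 lower in the 4 pathway lists. Without WT replicates 1 and 4, which leaves fewer samples, 2 of the 10 genes were called, 441 genes were higher and 603 lower in the whole table, and 2 genes of the pathway lists were higher. Among single genes, 38 values lost and 3 gained their call, and 13 changed sign, all of them uncalled. Leaving out 1 library at a time, the log2 fold change ran from -0.0590 to 0.172 for Wwtr1, from -0.153 to 0.0433 for Tead2, from -0.0749 to 0.0318 for Tead3 and from -0.291 to 0.0684 for Limd1. Tead3 was 0.0233 and 0.0200 on FPKM with pseudocounts of 0.1 and 1. Without WT replicates 1 and 4, Tead1 was 0.142, Tead3 0.0740, Ankrd23 -0.127 and Limd1 0.0960. The cause of the sign changes was not tested. Replicate numbers are shared between genotypes. Samples of the same number deviated together weakly at most (correlations 0.00099 to 0.0441), and the numbers were not taken as pairs in the main fit. With the replicate block, 3 of the 10 genes were called, Tead4 being lost (adjusted p = 0.0616), 792 genes were higher and 1023 lower, and 3 of 4 NG2ko libraries correlated best with their own number. By limma on FPKM 56.9% of calls were higher (pseudocount 0.1), beside 44.7% by edgeR on counts. With 4 libraries per genotype the smallest exact permutation p is 0.0286.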
